A study of Mus musculus with 2 samples.

Results

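The hairpins of the miR-15/16 pairs were measured in mouse embryonic forebrain. Members were taken by gene identifier, and all 4 (Mir15a, Mir16-1, Mir15b and Mir16-2) were found among the 1973 genes of the count tables. The study has 1 group of 2 small RNA libraries, made from forebrain of healthy strain B6NCrl embryos of both sexes at 10.5 days. Replicate 1 pooled tissue of 69 embryos and replicate 2 of 51 embryos, and the labels give them separate biosamples. No contrast between conditions exists, so the results are levels, ratios between hairpins, and differences between these 2 pools.

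miR-15 and miR-16 are small RNAs that repress messenger RNAs through a shared seed, the bases near the 5′ end that pair with the target. Known targets of the family include cyclins of the G1 phase and the survival factor Bcl2, and in humans loss of the copy within the long non-coding gene DLEU2 is a feature of chronic lymphocytic leukaemia. The other copy lies within Smc4, which encodes a subunit of condensin, the complex that compacts chromosomes at mitosis.

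Mir15a and Mir16-1 lie on the minus strand of chromosome 14, at chr14:61632027-61632110 and chr14:61631880-61631972 in mm10, with 54 bases between them. Both are inside Dleu2 and on its strand. Mir15a overlaps no Dleu2 exon, while Mir16-1 overlaps the exon of 1 Dleu2 transcript by 13 bases. Mir15b and Mir16-2 lie on the plus strand of chromosome 3, at chr3:69009772-69009835 and chr3:69009902-69009996, with 66 bases between them, in an intron of all 5 Smc4 transcripts that span them. No other counted gene was within 10 kb of either pair. In both pairs the miR-15 hairpin comes first along the strand.

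The mature 5′ arms of the members are shown because they decide which reads could be counted for each hairpin (RefSeq, GRCm38.p6, the mm10 build). Capitals mark the seed, bases 2 to 8.
miR-15a-5p of Mir15a: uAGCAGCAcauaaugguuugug
miR-15b-5p of Mir15b: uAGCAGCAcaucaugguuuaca
miR-16-5p of Mir16-1 and Mir16-2: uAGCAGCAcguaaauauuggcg

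All carried the same seed. Counted from 1 at the 5′ end, miR-15a-5p and miR-15b-5p differed at 4 of 22 positions (A12C, G20A, U21C and G22A, with the miR-15a base first), and miR-15a-5p differed from miR-16-5p at 6. The 5′ arms of Mir16-1 and Mir16-2 were identical. The 3′ arms, by contrast, were each held by 1 hairpin of the RefSeq table:
miR-15a-3p: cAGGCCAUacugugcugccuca
miR-16-1-3p: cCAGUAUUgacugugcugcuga
miR-15b-3p: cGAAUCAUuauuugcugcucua
miR-16-2-3p: aCCAAUAUuauugugcugcuuu

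The hairpins of Mir16-1 (chr14:61631880-61631972, minus strand) and Mir16-2 (chr3:69009902-69009996, plus strand) are given with their longest identical run in capitals.
Mir16-1: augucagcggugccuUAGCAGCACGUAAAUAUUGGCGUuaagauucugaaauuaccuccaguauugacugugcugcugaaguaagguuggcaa
Mir16-2: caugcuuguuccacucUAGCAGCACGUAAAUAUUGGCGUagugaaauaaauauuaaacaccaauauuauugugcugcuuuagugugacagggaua

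The run of 23 bases covers the whole of miR-16-5p and 1 base beyond it. An exact read that starts at the annotated 5′ end of miR-16-5p therefore lies in both hairpins up to 23 bases and in 1 of them only from 24 bases. Of the 72 windows of 22 bases in Mir16-1, 70 were found in no other hairpin of the table, and of the 74 in Mir16-2, 72 were. The arms of Mir15a and Mir15b were already held by 1 hairpin each at 15 bases from their 5′ ends. The deposited tables give reads that mapped to several places to no gene. Hence the counts of Mir16-1 and Mir16-2 are lower limits that leave out reads shared by both loci, and no ratio that uses them measures mature miR-16. Which arm or read length the counted reads had was not analysed here.

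The level of each hairpin is its count on the strand of the gene, divided by the total of gene counts and multiplied by 1000000 (CPM). Small RNA reads span a whole mature miRNA, so levels were not divided by hairpin length, and ratios between genes are given per base as well. Mir15a had the highest counts of the members. It had 15901 counts in replicate 1 and 17402 in replicate 2, or 4883 and 4868 CPM, with a mean of 4876 ± 11 CPM (SD, n = 2). Mir16-1 followed with 9920 and 9914 counts, or 3047 and 2774 CPM (2910 ± 193 CPM). By these counts the Dleu2 pair held the 2 highest members in each library. Mir16-1 and Mir16-2 are lower limits, so the order is that of counted reads.

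Mir15b had 6646 and 6617 counts in replicates 1 and 2, or 2041 and 1851 CPM (1946 ± 134 CPM). Mir16-2 had the lowest counts, at 2166 and 2161, or 665 and 605 CPM (635 ± 43 CPM). By mean level of counted reads the members ranked 47, 63, 81 and 124 of 1973 genes in the order Mir15a, Mir16-1, Mir15b, Mir16-2. This order was the same in both libraries with no overlap between neighbours. All of them lay above the median of 161 CPM over the 401 genes whose counts averaged at least 10. No read fell on the opposite strand of a member in either library. In replicate 1 this allows an opposite-strand share of up to 0.0189% at Mir15a and up to 0.139% at Mir16-2.

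**Figure D1:**
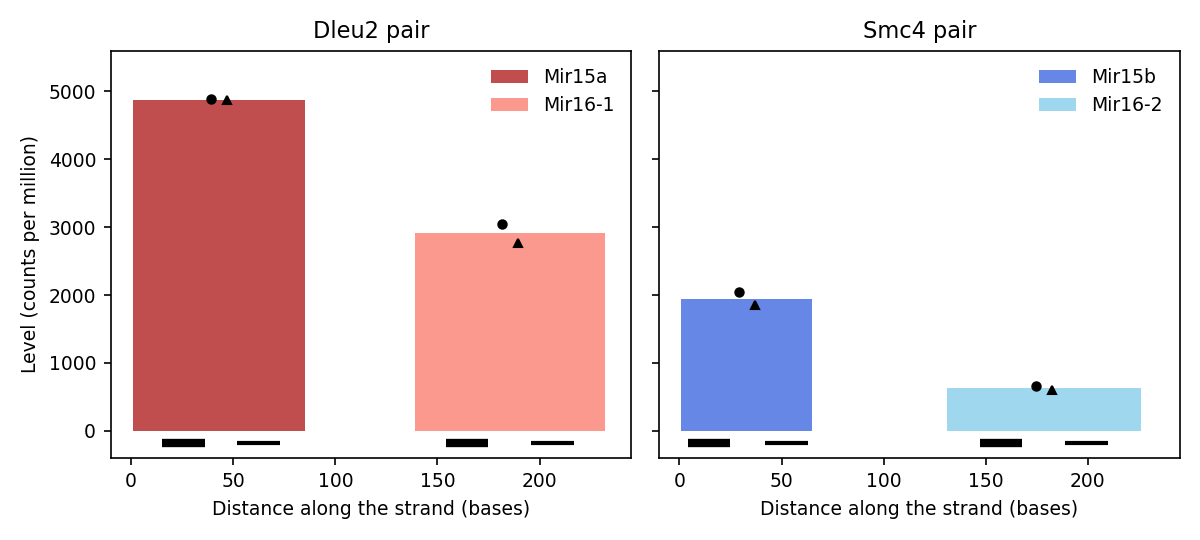
Level of the members in CPM (vertical axis, linear) along each pair, with distance in bases from the 5′ end of the first hairpin on the horizontal axis. Bars span the hairpins and give the mean of 2 libraries, with circles and triangles for replicates 1 and 2. Black strokes under the bars are the mature 5′ (thick) and 3′ (thin) arms. In both pairs the first hairpin has the higher count, at 4876 CPM for Mir15a and 1946 CPM for Mir15b. The bars of Mir16-1 and Mir16-2 are lower limits that leave out reads shared by both loci.

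Together the members held 1.06% of the gene counts in replicate 1 (95% exact Clopper-Pearson interval 1.05 to 1.07) and 1.01% in replicate 2 (0.999 to 1.02), a mean of 1.04% ± 0.038 (SD, n = 2). Of these counts the Dleu2 pair held 74.6% in replicate 1 (74.1 to 75.0) and 75.7% in replicate 2 (75.2 to 76.1). The Dleu2 pair summed to 7786 ± 204 CPM and the Smc4 pair to 2581 ± 177 CPM (SD, n = 2). Such intervals cover counting error only and leave out differences between pools. They treat reads as independent, although PCR copies of a molecule are counted as separate reads. Mir16-1 and Mir16-2 enter these shares and sums as lower limits. The split between the pairs therefore holds for counted reads only.

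Between the single-locus hairpins, Mir15a exceeded Mir15b 2.39-fold in replicate 1 and 2.63-fold in replicate 2. On the log2 scale the ratio was 1.26 (95% interval 1.22 to 1.30) and 1.40 (1.35 to 1.44), with a mean of 1.33 ± 0.10 (SD, n = 2). Divided by hairpin length, 84 bases for Mir15a and 64 for Mir15b, the mean log2 ratio was 0.93. Mir15a was thus the higher in both libraries on either scale, by more than the spread between them. With 1 value per pool no test over samples was made.

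The counted reads of the miR-16 loci were split more unequally. Mir16-1 exceeded Mir16-2 4.58-fold in replicate 1 and 4.59-fold in replicate 2, a log2 ratio of 2.20 in each library and 2.23 per base of hairpin. This is a ratio of reads that could be placed at 1 locus, and need not equal the ratio of mature miR-16 made by the loci. Within the Dleu2 pair Mir15a exceeded Mir16-1 by 0.68 on the log2 scale in replicate 1 (0.64 to 0.72) and 0.81 in replicate 2 (0.78 to 0.85). Within the Smc4 pair Mir15b exceeded Mir16-2 by 1.62 (1.55 to 1.69) and 1.61 (1.54 to 1.69). Since both Mir16 counts are lower limits, the last 2 ratios are upper limits for hairpin counts.

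These ratios do not depend on library scaling, and Fisher's exact test, two-sided and adjusted over the 4 ratios, asked whether they were the same in both pools. The ratio of Mir15a to Mir16-1 was lower in replicate 1 by 0.13 on the log2 scale (adjusted p = 1.7e-06, Fisher's exact test). The ratio of Mir15a to Mir15b was lower in replicate 1 by 0.14 (adjusted p = 8.4e-06, Fisher's exact test). Both ratios use the counts of Mir15a, so these results are not independent of each other. Mir16-1 over Mir16-2 differed by 0.0025 and Mir15b over Mir16-2 by 0.0030 between the pools, both with an adjusted p of 0.96 in Fisher's exact test. The test covers counting error only. A difference of 0.13 is also the median over 118 pairs of neighbouring hairpins averaging at least 10 counts, with 58 pairs smaller and 59 larger than Mir15a and Mir16-1. Over 97 pairs averaging at least 100 counts the median was 0.099, with 58 smaller and 38 larger.

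Among miRNAs with an identical arm in exactly 2 hairpins of the RefSeq table, 16 had both hairpins at an average of 10 counts or more. The log2 ratio of the higher to the lower hairpin ran from 0.61 to 5.19 over these miRNAs with a median of 1.69. The ratio for miR-16, at 2.20, exceeded 10 of them. Reads shared by hairpins were given to neither, so all these ratios compare only reads that could be placed at 1 locus. Of 87 counted genes whose hairpin shares an arm with another, Mir16-1 had the second highest mean level and Mir16-2 the ninth. The median level of the 46 such genes averaging at least 10 counts was 83.3 CPM.

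**Figure D2:**
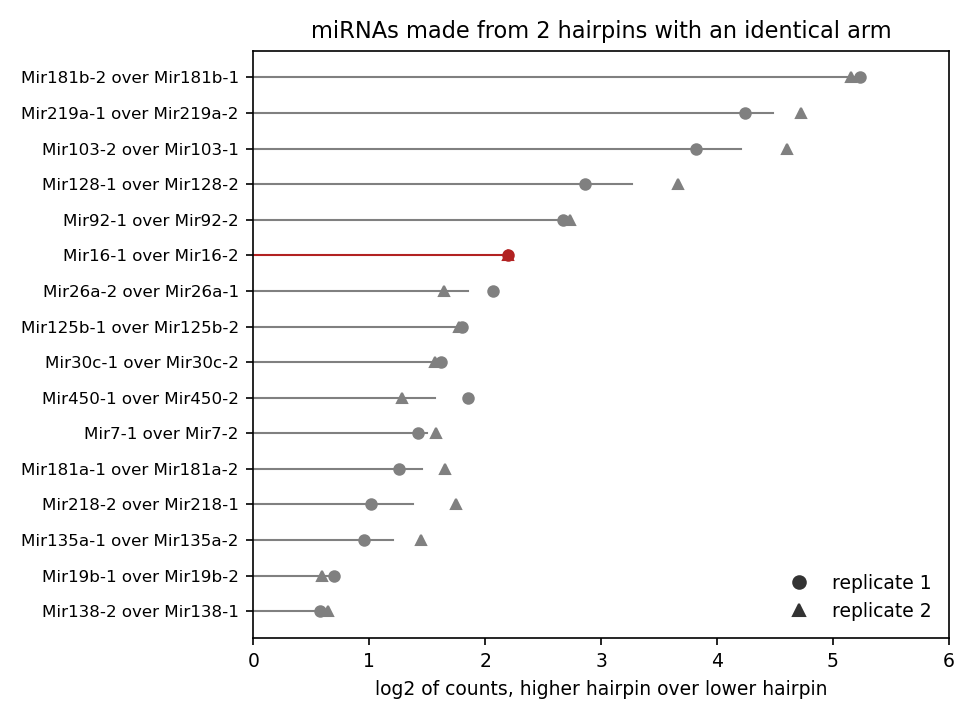
Counts of the higher over the lower hairpin on the log2 scale (horizontal axis) for the 16 miRNAs with an identical arm in 2 hairpins, each row 1 miRNA. Circles and triangles are replicates 1 and 2 and lines end at their mean. Mir16-1 over Mir16-2, in red, lies at 2.20 in each library. Reads that mapped to both hairpins are left out of these counts.

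Replicates 1 and 2 were compared with an exact binomial test of each gene's counts, two-sided, after TMM scaling and with Benjamini-Hochberg adjustment over 401 genes. Of these genes 43.4% were called different (174 genes, 79 higher and 95 lower in replicate 1), so a call is common. With total-count scaling 93 were higher and 84 lower, and with TMM factors from all genes 72 were higher and 103 lower. Of the 4 members 3 were called, all higher in replicate 1. All 4 averaged more than 100 counts, where calls are more frequent. With the test limited to the 271 genes averaging at least 100 counts, 60.1% were called. Mir16-1 was higher by 0.10 on the log2 scale (95% interval 0.06 to 0.15, adjusted p = 1.3e-06, exact binomial test). Mir15b was higher by 0.11 (0.06 to 0.16, adjusted p = 3.9e-05, exact binomial test) and Mir16-2 by 0.11 (0.02 to 0.19, adjusted p = 0.035, exact binomial test). Mir15a had a log2 ratio of −0.03 (−0.06 to 0.0048, adjusted p = 0.19, exact binomial test).

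The median log2 ratio of replicate 1 over replicate 2 was 0.11 for the members, against −0.03 for all genes tested, and the median size without sign was 0.11 for the members, against 0.17 for all genes tested. The biological coefficient of variation between the libraries, after TMM scaling and with counting error taken out, was 14.0% over these genes. The SD of the CPM, scaled by total gene counts and with counting error left in, is another measure. It was 0.22% of the mean for Mir15a and 6.64% to 6.90% for the others, and cannot be set directly against the 14.0%. The sign for Mir15a turned to 0.0045 with scaling by total counts, and with TMM factors taken from all genes Mir15a was called lower at −0.05 (adjusted p = 0.0050, exact binomial test). With those factors Mir16-2 was not called (0.08, adjusted p = 0.12, exact binomial test). In bulk tissue, fewer cells of a type and less RNA per cell cannot be told apart.

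**Figure D3:**
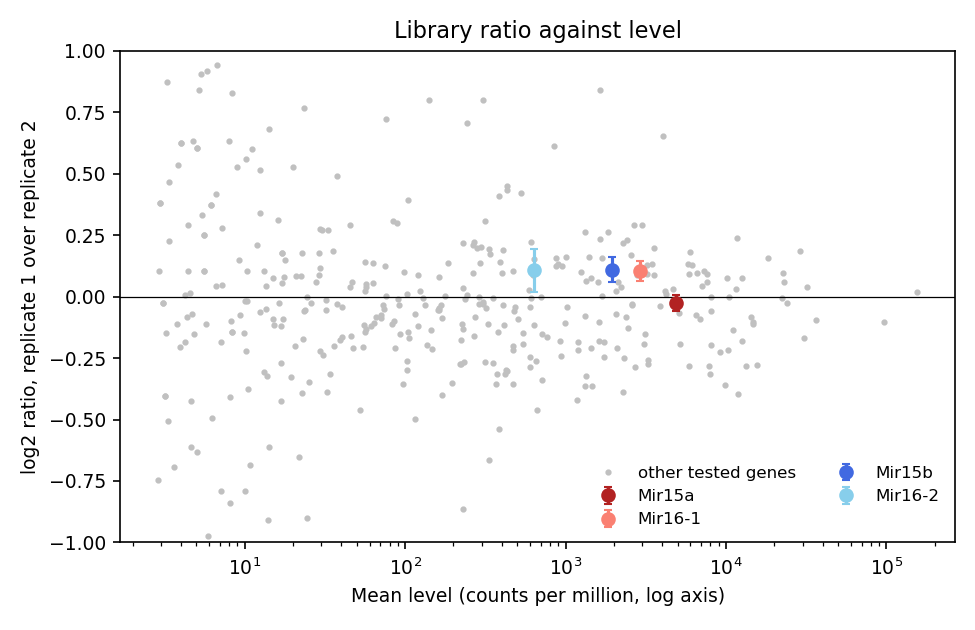
log2 ratio of replicate 1 over replicate 2 (vertical axis) against mean level in CPM (horizontal axis, log scale) for the genes tested, of which 14 lie outside the plotted range. Members are coloured with their 95% exact intervals; Mir16-1, Mir15b and Mir16-2 sit at 0.10 to 0.11 and Mir15a at −0.03.

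The seed of the members was found in 11 of the 1738 mature entries of the RefSeq table (0.633%), each from a hairpin of its own. Relatives with counts are shown for comparison with the members' 5′ arms, again with bases 2 to 8 in capitals.
miR-322-5p: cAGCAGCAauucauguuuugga
miR-195a-5p: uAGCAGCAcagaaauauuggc
miR-503-5p: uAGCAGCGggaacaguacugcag
miR-107-3p: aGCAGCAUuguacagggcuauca

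Mir322, the mouse relative of human miR-424 on the X chromosome, had more counts than any member. Its level was 14314 CPM in replicate 1 and 15071 CPM in replicate 2. Mir195a of chromosome 11 stood below every member, with 292 and 287 CPM. Its neighbour on the same strand, Mir497, was not among the counted genes. The other seed holders were near 0, with Mir195b, Mir6342 and Mir6419 at 0 counts in both libraries and Mir6353 at 0 counts in replicate 1 and 1 in replicate 2. Mir503, whose seed ends in another base, had 483 and 487 CPM. The members together held 41.3% of the counts of the listed family in replicate 1 (41.0 to 41.7) and 38.9% in replicate 2 (38.6 to 39.2). That list includes Mir503 and Mir497b, which lack the seed, and leaves out Mir497, and Mir16-1 and Mir16-2 enter as lower limits, so it is not the share of all miRNA with the seed.

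In the wider group of miR-103 and miR-107, whose mature miRNAs start 1 base further into the shared stretch, Mir107 had 1492 CPM in replicate 1 and 1305 CPM in replicate 2. Mir103-2 had 139 and 149 CPM and Mir103-1 had 9.83 and 6.15 CPM, both lower limits because their 3′ arm is the same. The 3′ arm of Mir107 matches that of miR-103 except near its 3′ end, so shorter reads can be shared. Mir107 may therefore be a lower limit too. By these counts Mir107 lay between Mir15b and Mir16-2 in both libraries. Of the relatives tested, Mir322 was lower in replicate 1 by a log2 ratio of −0.11 (adjusted p = 1.0e-29, exact binomial test) and Mir107 higher by 0.16 (adjusted p = 1.7e-07, exact binomial test). Mir195a, Mir503, Mir103-1 and Mir103-2 were not called.

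**Figure D4:**
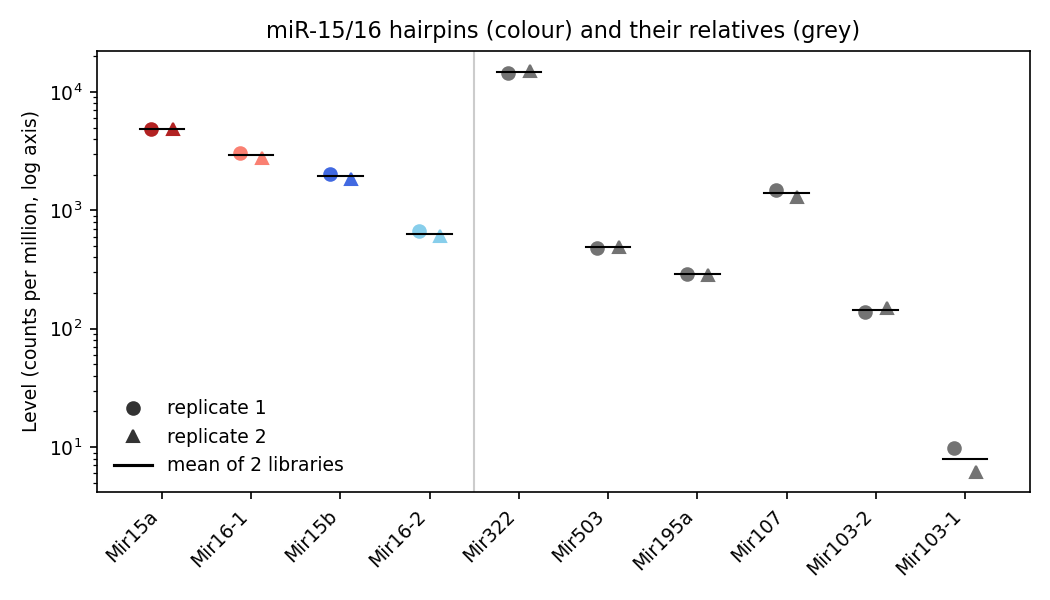
Level in CPM (vertical axis, log scale) of the members, in colour, and of relatives, in grey. Circles and triangles are replicates 1 and 2 and the line is their mean. Mir322 at 14693 CPM is above every member and Mir195a at 290 CPM is below them. Mir16-1 and Mir16-2 are lower limits.

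The genes nearest in level to each member, by distance in log2(CPM + 1) over the 2 libraries, were Mir382, Mir872 and Mir379 for Mir15a, Mir301, Mir429 and Mir140 for Mir16-1, Mir22, Mir532 and Mir139 for Mir15b, and Mir501, Mir325 and Mir186 for Mir16-2. The smallest distance was 0.033 between Mir16-2 and Mir501, which had 677 CPM in replicate 1 and 596 CPM in replicate 2. Mir382 was nearest to Mir15a, at 0.083, with 5003 and 5131 CPM. No member was among the 3 nearest genes of another.

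Replicate 1 had 8559330 reads with 3256070 gene counts and replicate 2 had 9664755 reads with 3574530. Reads mapped to several places, 2577249 and 2780180 in number, would include any miR-16-5p read placed at both loci. Of the forebrain and neural progenitor markers, Mir9-1 was not among the counted genes. The other 7 all had counts and summed to 21775 CPM in replicate 1 and 19223 CPM in replicate 2. Most of that sum was Mir92b, with 19407 and 17048 CPM. The rest ranged from 5.32 CPM (Mir9-2, replicate 2) to 1712 CPM (Mir153, replicate 1), and Mir128-2 had 12.9 and 5.87 CPM. The neuron markers, counted in 4 of 4 genes, summed to 512 and 370 CPM. Mir137 held 502 and 359 CPM of that sum, and the Mir124a loci had 0.921 to 5.04 CPM each. Numbered loci of 1 miRNA in these lists, Mir124a among them, can share reads that were given to no gene, so their levels and sums are lower limits. Of the red blood cell markers, Mir451a had 601 CPM in replicate 1 and 707 CPM in replicate 2 (log2 ratio −0.26), and Mir144 had 59.9 and 53.2 CPM (log2 ratio 0.14). Leukocyte markers summed to 724 and 642 CPM in 3 counted genes, with Mir142 and Mir142hg not among the counted genes. Mir155 had 417 and 382 CPM, Mir223 had 303 and 258 CPM, and Mir150 had 3.69 and 1.12 CPM. The endothelial marker Mir126a had 29029 and 31930 CPM. Markers of the hindbrain and trunk summed to 237 and 297 CPM, Mir122 of liver had 10.7 and 9.79 CPM, and of the muscle markers only Mir206 had counts, at 2.76 and 2.24 CPM, with Mir1a-1, Mir133a-1 and Mir133a-2 at 0 counts and Mir1a-2 not among the counted genes. The same limit can hold for the numbered loci among these, such as Mir1a-1, Mir133a-1 and Mir133a-2, so a 0 there does not show that the miRNA was absent. The part of these cells in the levels of the members was not tested.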

How the data were processed

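Small RNA of 2 forebrain libraries was sequenced, with fragments under 30 bases per the labels. The authors deposited raw counts of reads per gene, not normalized, on assembly mm10 and genome annotation M4, per the file headers and notes. No aligner, trimming step or counter is named; these were not given in the sources used here. Reads on the gene's own strand were used, which held 96.7% and 96.4% of the counts on either strand in replicates 1 and 2. The 4 tallies of reads of no gene stayed out of all totals. Of all reads they held 30.1% and 28.8% mapped to several places, 24.6% and 25.4% unmapped, and 7.28% and 8.82% outside genes.

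Symbols and positions came from GENCODE M21 (mm10), where 1894 of 1973 identifiers were found. Sequences came from RefSeq (GRCm38.p6), with arms of all 4 members and hairpins of Mir16-1, Mir16-2 and Mir15b. CPM used the total of gene counts. Ratios between libraries used TMM factors of edgeR 4.0.16 (R 4.3.3) from genes averaging at least 10 counts, and a pseudocount of 0.5 counts. The threshold was an adjusted p of 0.05. Tests and figures were made in Python 3.11.15 with scipy 1.17.1, matplotlib 3.10.9, pandas 2.3.3 and numpy 2.4.6. Intervals are exact Clopper-Pearson at 95%, and a count of 0 allows 3. The binomial test was tried on simulated counts that held counting error only, which cannot show how it behaves with differences between pools. Both tests compare these 2 libraries and cover counting error only.

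Members, relatives and marker lists were chosen with earlier results of these data known. Named genes are the members, the listed relatives and markers, and the 3 genes nearest to each member. TMM factors were first taken from all genes. After the calls were seen, genes averaging at least 10 counts were used instead, partly to follow an earlier processing of these data, and the calls of Mir15a and Mir16-2 depend on that choice. Mir6342, Mir6353 and Mir6419 were named after their values were seen. Alternatives were total-count scaling, DESeq2 1.42.0 size factors, TMM factors from all genes, other count filters, the count on either strand, a pseudocount of 5, levels per base, a total with reads mapped to several places, and each library alone.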

Additional observations from a re-analysis of the deposited data

Results flagged for a closer look

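Opposite-strand reads, which were left out of the values above except where the count on either strand was tried, were found at Mir497b, with 1422 reads in replicate 1 and 1562 in replicate 2, above the 3 counts that a count of 0 allows. Mir497b had 1 count on its own strand in each library. Mir497, which carries the seed of the members and was not among the counted genes, lies opposite to it on chromosome 11. The source of these reads was not tested. The members had no opposite-strand read.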

How the results depend on the processing

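Of 79 alternative values for 16 results, 65 were labelled unchanged. Library ratios had to keep their direction and their side of the threshold. Numbers of genes called had to stay within 1.5-fold, which 2 members called instead of 3 still met. Other values had to move by no more than the SD between replicates. With 2 libraries, each library alone always meets that rule. Without opposite-strand reads at the members, their log2 levels could not change with the count on either strand. The 65 therefore include values fixed in advance and do not measure robustness. The log2 ratio of replicate 1 over replicate 2 for Mir15a reversed to 0.0045 with total-count scaling, which shifts all ratios by 0.03. Mir16-2 lost its call without a filter on counts (739 genes tested, adjusted p = 0.064, exact binomial test), so that 2 members were called, where 22.5% of all genes tested were. With TMM factors from all genes, the scaling computed first and made an alternative after seeing the data, Mir15a gained a call and Mir16-2 lost it. Per base of hairpin the log2 levels were 0.93 for Mir15a over Mir15b, 2.23 for Mir16-1 over Mir16-2, 0.89 for Mir15a over Mir16-1 and 2.19 for Mir15b over Mir16-2. With reads mapped to several places in the total, the members held 0.581% of the counts. Each library alone gave 1.01% to 1.06% for that share and 1.26 to 1.40 for the log2 level of Mir15a over Mir15b. Genes called ranged from 163 to 182 over the settings tried, but their share of the genes tested was 22.5% without a filter and 60.1% of the 271 genes averaging at least 100 counts, where 3 members were called. The share of the listed family held by the members was 39.5% with the count on either strand. No paired analysis was possible because the study has 1 group. Depth limits Mir16-2 most, with 2166 and 2161 counts.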

Other observations

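Library ratios were set side by side for neighbouring hairpins, a comparison added after the values were seen. On the same strand within 10 kb, 97 pairs of adjacent genes had a mean count of 100 or more each, and the log2 ratio of replicate 1 over replicate 2 differed within a pair by a median of 0.10. Mir15a and Mir16-1 differed by 0.13, more than 58 of these pairs, and Mir15b and Mir16-2 by 0.0030, more than 2 of them. With a mean count of 10 or more there were 118 pairs with a median difference of 0.13, and Mir15a and Mir16-1 differed by more than 58 of them. The pairs share libraries and some share genes, so these are descriptions and not tests.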
